A study of Mus musculus with 12 samples.

Results

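The killing machinery of cytotoxic lymphocytes was followed in the uterus through 10 genes: the granzymes Gzma, Gzmb and Gzmc, the pore-forming protein Prf1, the granule membrane protein Nkg7, the natural killer (NK) cell receptors Ncr1 and Klrd1, the T cell receptor chains Cd3e and Cd3g, and the co-receptor Cd8a. They were found by gene symbol among the 41174 probes of the array, as all probes whose name in the files or whose current symbol for the probe's accession was one of the 10. All 10 had a probe, with 14 probes in all, out of 27669 gene names on the array. Each of the 10 was among the 19304 genes tested.

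Uteri of 12 adult female mice of at least 10 weeks, of strain C57bl6/Jx129 per the labels, were hybridised singly to 1-colour arrays. The mice had been ovariectomized and rested for 10 to 14 days, so the ovarian source of hormones had been removed in all groups. The 4 groups of 3 mice were EAAE mice given E2 (estradiol), EAAE mice given saline, wild-type (WT) mice given E2 and WT mice given saline. The injection was 100 ul, with the dose of E2 not given in the labels, and uteri were taken 2 h later. EAAE mice carried, per the study's title, a form of estrogen receptor alpha (Esr1) that is deficient in DNA binding. The labels do not say whether littermates served as controls, and an expression probe does not read a change within the receptor, so the genotype labels were not checked here.

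Cytotoxic T cells and NK cells kill by releasing granules. Perforin opens the membrane of the target cell and granzymes, a family of serine proteases, enter and start its death. The mouse uterus holds a resident population of NK cells, which is known for its expansion in pregnancy and for its dependence on the cytokine interleukin 15. Whole uterus was measured, so fewer cells of a type and less RNA per cell cannot be told apart in any value below.

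The probes are shown first, because the granzyme genes on chromosome 14 are close relatives. In the following 60-base probes, from the files (build mm7, chromosome 14, minus strand), capitals mark the longest run shared by any pair of granzyme probes.
Gzmc at chr14:51099611-51099670: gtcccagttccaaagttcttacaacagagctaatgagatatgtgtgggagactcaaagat
Gzmd, bright probe, spanning chr14:50998126-50998632: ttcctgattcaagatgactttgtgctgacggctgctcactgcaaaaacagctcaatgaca
Gzmd, dim probe at chr14:50998632-50998691: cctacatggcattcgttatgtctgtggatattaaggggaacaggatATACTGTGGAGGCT
Gzme at chr14:50986691-50986750: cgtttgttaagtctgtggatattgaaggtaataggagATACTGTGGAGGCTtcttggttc
The run of 14 bases between the dim Gzmd probe and the Gzme probe was the longest, and neither of these 2 probes rose above background on any array. The next longest run between granzyme probes was 9 bases. The Gzmc probe shared no run of more than 7 bases with any other granzyme probe. The Gzmb probe lies at chr14:51126432-51126491, on the minus strand of the same cluster.

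Promoters are shown for the 4 genes of granules that differed between the genotypes, since the receptor of EAAE mice is altered in its contact with DNA. RefSeq sequences (GRCm38.p6), from 250 bases before to 50 bases after the annotated start, were on hand for 9 of the 10 genes. Klrd1 had none and was not searched. 5 motifs were searched on both strands, and matches are in capitals.
Gzmb, chr14:56262285-56262584, minus strand: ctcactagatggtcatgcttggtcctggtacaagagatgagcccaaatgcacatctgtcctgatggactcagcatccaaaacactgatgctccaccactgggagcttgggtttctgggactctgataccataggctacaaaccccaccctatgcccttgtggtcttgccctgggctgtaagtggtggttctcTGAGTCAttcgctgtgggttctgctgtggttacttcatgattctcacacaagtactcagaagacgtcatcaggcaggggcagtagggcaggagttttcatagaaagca
Gzmc, chr14:56234608-56234907, minus strand: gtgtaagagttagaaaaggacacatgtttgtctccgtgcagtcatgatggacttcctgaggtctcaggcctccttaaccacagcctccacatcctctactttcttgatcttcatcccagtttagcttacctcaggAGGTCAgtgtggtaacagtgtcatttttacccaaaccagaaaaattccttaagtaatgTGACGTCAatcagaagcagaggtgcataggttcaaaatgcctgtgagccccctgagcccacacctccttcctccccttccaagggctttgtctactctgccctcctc
Prf1, chr10:61297586-61297885, plus strand: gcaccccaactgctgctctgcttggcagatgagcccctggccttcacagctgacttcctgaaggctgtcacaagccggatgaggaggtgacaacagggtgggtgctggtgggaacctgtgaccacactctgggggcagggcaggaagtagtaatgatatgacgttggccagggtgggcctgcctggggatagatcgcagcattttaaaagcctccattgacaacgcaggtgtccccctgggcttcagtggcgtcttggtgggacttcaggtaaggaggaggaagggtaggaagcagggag
Nkg7, chr7:43436888-43437187, plus strand: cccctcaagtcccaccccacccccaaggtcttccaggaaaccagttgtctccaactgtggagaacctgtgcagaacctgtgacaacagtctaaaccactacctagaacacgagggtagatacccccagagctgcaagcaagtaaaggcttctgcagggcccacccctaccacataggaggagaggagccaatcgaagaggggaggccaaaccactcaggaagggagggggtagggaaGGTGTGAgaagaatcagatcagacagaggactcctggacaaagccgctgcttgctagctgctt
The full estrogen response element is GGTCA and TGACC with 3 bases between them. It was in none of the promoters of these 9 genes and in 0.07% of the 32851 promoters of the same length. Its single arm AGGTCA, which is part of the full element where an A precedes it, was in Gzmc 115 bases before the start and in Ncr1, and in 16.3% of all promoters. The AP-1 site TGANTCA, held by 7.81% of promoters, was in Gzmb 58 bases before the start. The cyclic AMP response element TGACGTCA, held by 1.79%, was in Gzmc 57 bases before the start, and the T-box site GGTGTGA, held by 3.98%, was in Nkg7 13 bases before the start. Prf1, Gzma, Cd3e, Cd3g and Cd8a had no match to these letters. A match describes the sequence and is no measure of binding.

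Levels below are given as a percentage of the 75th-percentile signal of the same array, so that arrays can be compared. They compare groups for 1 probe and do not rank genes. Differences are on the log2 scale with a standard error (SE) from limma, and a gene was called where the Benjamini-Hochberg adjusted p over all 19304 genes was under 0.05. RNA of each uterus was extracted singly. The 5 comparisons share arrays, so their results are not independent of each other. Processed signal at the 75th percentile ran from 1398 to 1942 intensity units over the 12 arrays, and between 63.98 and 74.03% of probes were well above background. Of the 14 probes of the 10 genes, 10 cleared the background on each of the 12 arrays, and 2 were not tested because they were dim in every group.

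**Figure D1:**
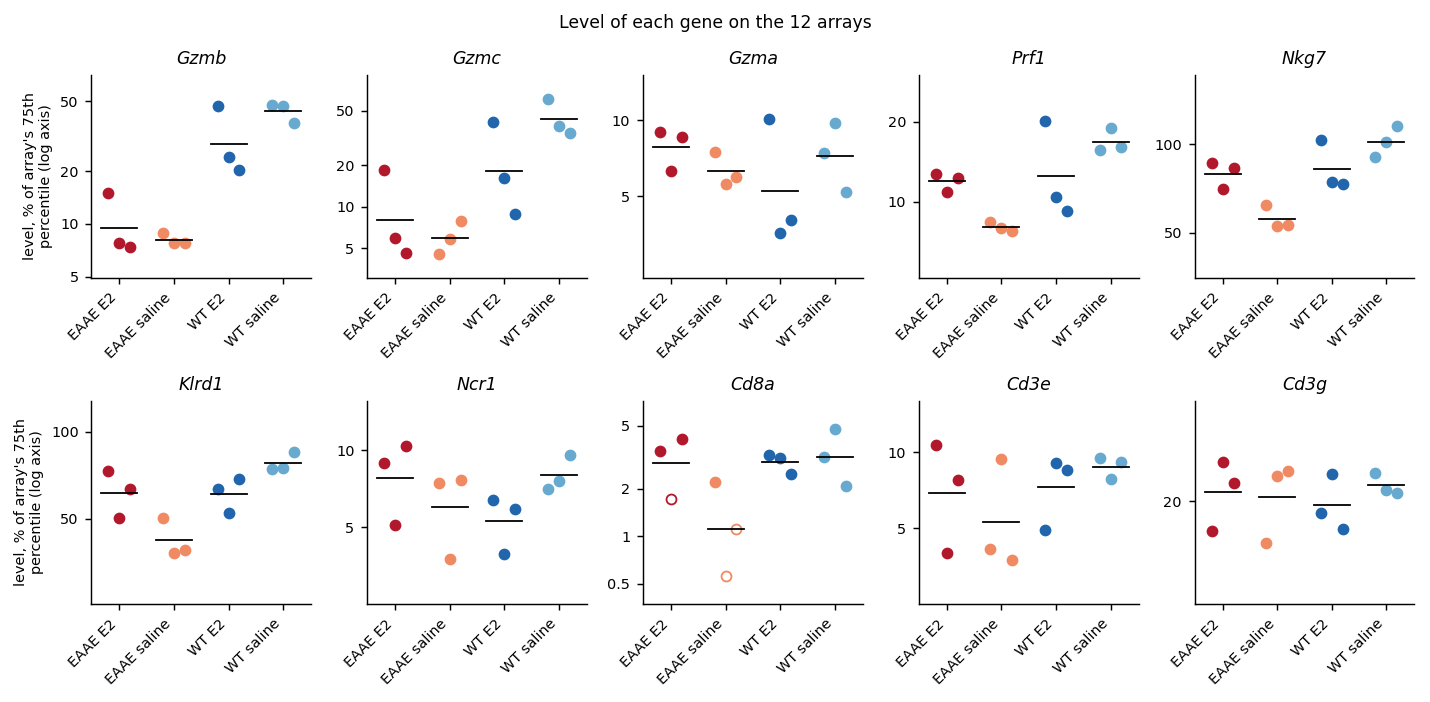
Level of each gene's brightest probe as a percentage of the array's 75th-percentile signal (log axis), 1 point per mouse in each of the 4 groups; black lines are group means of the log values and open points are spots not well above background. Gzmb in the 3 EAAE saline uteri sits between 7.78 and 8.92%, below all 3 WT saline uteri at 37.9 to 47.5%, and 1 WT E2 uterus lies at the saline level in Gzmb, Gzmc and Prf1.

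Gzmb, Gzmc, Prf1 and Nkg7 were lower in EAAE than in WT uteri of mice given saline, and Gzma was not called. The 4 genes of granules were called lower, as were the NK receptor Klrd1 and, on 1 of its probes, Cd8a. That makes 6 of 10 genes lower and none higher. The Cd8a probe entered the test through the WT groups alone, because in EAAE it cleared the background in 1 saline and 2 E2 uteri. With no filter on dim probes the Cd8a call was lost (limma adjusted p = 0.0698). Over all genes tested, 15.1% were called lower and 14.5% higher. The median log2 difference of the 10 genes was -0.88, beside 0.000772 over all genes, and all 10 differences were below 0.

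Gzmb encodes granzyme B, the protease that cleaves after aspartate and activates caspases. It stood at 8.92, 7.78 and 7.79% in the EAAE saline uteri, against 47.5, 46.8 and 37.9% in the WT saline uteri. Every EAAE value lay below every WT value. The log2 difference was -2.43 (SE 0.32, limma adjusted p = 0.000395), so that EAAE uteri held 0.186 of the WT level.

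Gzmc, a granzyme of the chromosome 14 cluster found in activated killer cells, had the largest difference of the 10. Its level was 4.56, 5.81 and 7.83% in the EAAE saline uteri, against 60.9, 38.6 and 34.4% in the WT saline uteri, with no overlap. The difference was -2.87 (SE 0.60, limma adjusted p = 0.00541), or 0.137 of the WT level.

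Gzma, the tryptase-like granzyme A, did not follow the pair from chromosome 14. It had 7.49, 5.59 and 5.95% in the EAAE saline uteri, against 7.44, 9.75 and 5.19% in the WT saline uteri. The values overlapped, and the difference of -0.20 (SE 0.37, limma adjusted p = 0.716) was within the spread between mice.

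Prf1, which encodes perforin, was at 8.35, 7.94 and 7.72% in the EAAE saline uteri, against 15.7, 18.9 and 16.1% in the WT saline uteri. The groups did not overlap, at a difference of -1.07 (SE 0.24, limma adjusted p = 0.00736). Nkg7, needed for granule release, had 2 probes that gave the same order. The brighter stood at 62.3, 52.8 and 53.2% in the EAAE saline uteri, against 90.2, 102 and 115% in the WT saline uteri (difference -0.86, SE 0.15, limma adjusted p = 0.00212). The other stood at 31.6, 24.4 and 22.0% in the EAAE saline uteri, against 46.4, 49.6 and 56.1% in the WT saline uteri (difference -0.97, SE 0.15, limma adjusted p = 0.000949 over all probes).

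The 2 NK receptors did not give the same call. Klrd1, which encodes CD94, the partner of the inhibitory and activating NKG2 receptors, had 50.4, 37.9 and 38.8% in the EAAE saline uteri, against 74.4, 74.7 and 85.2% in the WT saline uteri. These values did not overlap, with a difference of -0.89 (SE 0.16, limma adjusted p = 0.00267). Ncr1, the activating receptor NKp46 and a defining NK marker, had 7.44, 3.75 and 7.65% in the EAAE saline uteri, against 7.07, 7.59 and 9.61% in the WT saline uteri. Its values overlapped, and the difference of -0.42 (SE 0.33, limma adjusted p = 0.366) was not called.

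Of the T cell genes, only Cd8a was called, and its probes disagreed. The brightest Cd8a probe had 2.21, 0.559 and 1.12% in the EAAE saline uteri, of which 1 was well above background, against 3.16, 4.80 and 2.09% in the WT saline uteri. The groups overlapped at a difference of -1.51 (SE 0.49, limma adjusted p = 0.0425). A probe printed as 10 spots gave -0.34 (SE 0.26, limma adjusted p = 0.358 over all probes), and a further Cd8a probe was above background on 1 of 12 arrays. The Cd8a call was lost on leaving out any 1 of 8 of the 12 arrays (3 of them WT E2 arrays, through the shared estimate of spread), with an adjusted p of up to 0.133, and with the slide as a block (adjusted p = 0.145). Normexp background correction gave -0.11 (adjusted p = 0.482), and the mean of the tested Cd8a probes gave -0.92 (adjusted p = 0.075).

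Cd3e and Cd3g, signalling chains of the T cell receptor complex, were not called. Cd3e had 4.15, 9.39 and 3.74% in the EAAE saline uteri, against 9.46, 7.83 and 9.11% in the WT saline uteri, so 1 EAAE uterus lay among the WT uteri (difference -0.74, SE 0.42, limma adjusted p = 0.211). A second Cd3e probe was not well above background on any of the 12 arrays. Cd3g had 15.2, 23.7 and 24.4% in the EAAE saline uteri, against 24.1, 21.6 and 21.1% in the WT saline uteri (difference -0.11, SE 0.22, limma adjusted p = 0.741).

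The 5 calls other than Cd8a were kept on leaving out each of the 12 arrays in turn, with adjusted p-values of at most 0.0282. With the slide as a block the differences were -2.73 for Gzmb, -3.43 for Gzmc, -1.25 for Prf1, -0.90 for Nkg7 and -0.90 for Klrd1, all with adjusted p-values under 0.05. Only slide 1 held arrays of both genotypes under saline, 1 of each, and there the differences were -2.61, -3.39, -0.98, -0.77 and -0.97 in the same order. The place of an array on its slide was not balanced between genotypes: WT saline arrays were at positions 1 and 2, EAAE saline arrays at 2 and 3, and all 3 EAAE E2 arrays at 4. With position as a linear term 2 of the 10 genes, Gzmb (-1.91, adjusted p = 0.00989) and Nkg7 (-0.68, adjusted p = 0.0455), were called, while Gzmc (-2.35, 0.081), Prf1 (-0.64, 0.128) and Klrd1 (-0.73, 0.0513) were not.

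**Figure D2:**
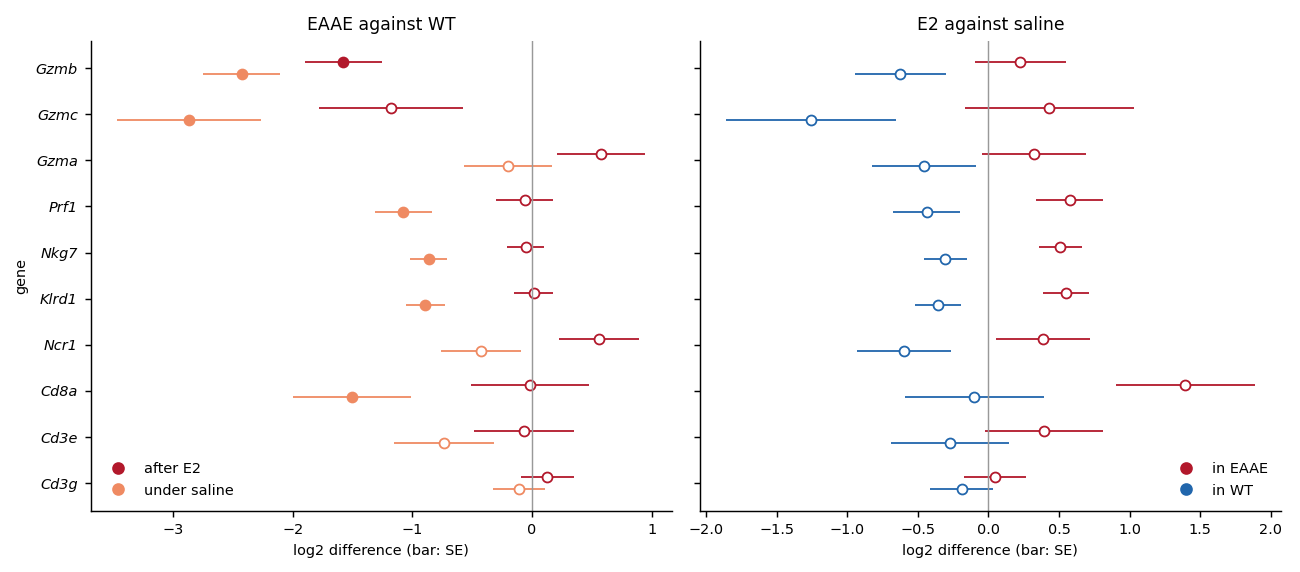
Log2 difference with its SE for each gene, at left EAAE against WT after E2 and under saline, at right E2 against saline in EAAE and in WT; filled points were called by limma (adjusted p under 0.05). Under saline 6 genes are called lower in EAAE, after E2 only Gzmb, and the responses to E2 lie above 0 in EAAE and below 0 in WT with none called.

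After E2, Gzmb was called between the genotypes and the other 9 genes were not. Of the 10 genes, 1 was called lower in EAAE and none higher, where 24.5% of all genes were called lower and 33.5% higher. The median difference of the 10 genes was -0.03, beside 0.11 over all genes, and was -0.11 without EAAE E2 1 and 0.098 without EAAE E2 2. Gzmb had 14.9, 7.83 and 7.38% in the EAAE E2 uteri, against 46.9, 24.2 and 20.2% in the WT E2 uteri. The groups did not overlap (difference -1.58, SE 0.32, limma adjusted p = 0.00177), and with position as a linear term the difference was -0.80 (adjusted p = 0.213). With that term the 1 gene called was Gzma, higher in EAAE (1.92, adjusted p = 0.0021). The EAAE E2 arrays were all at position 4 and the WT E2 arrays at 1 to 3. Position and genotype therefore cannot be told apart after E2, and the term rests on the slope within the other groups.

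Gzmc had 18.6, 5.95 and 4.60% in the EAAE E2 uteri, against 41.1, 16.1 and 8.92% in the WT E2 uteri. Here the highest EAAE uterus lay above 2 of the WT uteri, and the difference of -1.18 (SE 0.60, limma adjusted p = 0.118) was not called. Gzmc was called without WT E2 3 or without EAAE E2 1, the arrays that lay closest to the other genotype.

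The other genes had overlapping values after E2. Prf1 stood at 12.7, 10.9 and 12.3% in the EAAE E2 uteri, against 20.1, 10.4 and 9.17% in the WT E2 uteri (difference -0.06, SE 0.24, limma adjusted p = 0.848). Nkg7 stood at 86.3, 70.2 and 82.9% in the EAAE E2 uteri, against 103, 74.3 and 73.2% in the WT E2 uteri (difference -0.05, SE 0.15, limma adjusted p = 0.794). Klrd1 had 72.9, 50.2 and 63.5% in the EAAE E2 uteri, against 63.1, 52.2 and 68.5% in the WT E2 uteri (difference 0.01, SE 0.16, limma adjusted p = 0.952). In each of these 3 genes the ranges of the genotypes crossed.

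Gzma had 8.98, 6.32 and 8.60% in the EAAE E2 uteri, against 10.1, 3.57 and 4.04% in the WT E2 uteri (difference 0.58, SE 0.37, limma adjusted p = 0.205). A single WT uterus, WT E2 1, held the overlap, and without it the difference was 1.05 (adjusted p = 0.00685), higher in EAAE. Ncr1 had 8.93, 5.12 and 10.4% in the EAAE E2 uteri, against 6.41, 3.94 and 5.90% in the WT E2 uteri (difference 0.56, SE 0.33, limma adjusted p = 0.18), and was called without EAAE E2 2. Cd8a, Cd3e and Cd3g differed by -0.01, -0.07 and 0.13, with limma adjusted p-values of 0.986, 0.904 and 0.65.

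Within each genotype no member passed the test for a response to E2. In EAAE uteri 0 of 10 genes were called, with 0.684% of all genes called higher and 0.751% lower. At an unadjusted p under 0.05 limma found 4 of the 10, all higher after E2: Nkg7, Klrd1, Cd8a and Prf1. The shares of all genes just given are at the adjusted threshold and are no measure for this count. The share of all genes at the unadjusted threshold is not given here. All 10 differences were above 0, with a median of 0.41 beside 0.02 over all genes. The median was 0.26 without EAAE E2 1, 0.64 without EAAE E2 2, 0.25 with normexp background correction and 0.73 with position as a linear term. Their sizes were 0.51 (SE 0.15, limma adjusted p = 0.142) for Nkg7, 0.55 (SE 0.16, 0.138) for Klrd1, 1.39 (SE 0.49, 0.205) for Cd8a and 0.58 (SE 0.24, 0.274) for Prf1. The second Nkg7 probe had 39.3, 33.4 and 38.7% in the EAAE E2 uteri, against 31.6, 24.4 and 22.0% in the EAAE saline uteri. Cd8a had 3.48, 1.73 and 4.15% in the EAAE E2 uteri, against 2.21, 0.559 and 1.12% in the EAAE saline uteri. The groups did not overlap in Prf1 or in either Nkg7 probe, and they overlapped in Klrd1 and Cd8a. The differences of Gzmb and Gzmc, 0.23 (SE 0.32) and 0.43 (SE 0.60), rested on 1 mouse, EAAE E2 1: without it they were -0.10 and -0.18. Prf1 was called (adjusted p = 0.0474) when WT E2 1 was left out, through the shared estimate of spread.

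In WT uteri 0 of 10 genes were called as well, with 19.6% of all genes called higher and 29.8% lower. On the brightest probe of each, limma found 0 of the 10 at an unadjusted p under 0.05. The share of all genes at that threshold is not given here. The second Nkg7 probe differed by -0.37 (SE 0.15, limma unadjusted p = 0.0296, adjusted p = 0.059 over all probes). On that probe, and in Klrd1 and Ncr1, every WT E2 value lay below every WT saline value. All 10 differences were below 0, at a median of -0.40 beside -0.15 over all genes. With arrays scaled by their median, the all-gene median moved by 0.133 to -0.01, the calls were 4492 higher and 3951 lower in place of 3774 and 5755, and the median of the 10 genes was -0.26. Gzmb fell short of the threshold at -0.63 (SE 0.32, limma adjusted p = 0.134), Gzmc at -1.26 (SE 0.60, 0.107), Prf1 at -0.44 (SE 0.24, 0.155) and Klrd1 at -0.36 (SE 0.16, 0.096).

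The WT responses of Gzma, Gzmb, Gzmc, Prf1 and Nkg7 depended on 1 mouse. WT E2 1 had 46.9% Gzmb, 41.1% Gzmc, 20.1% Prf1, 10.1% Gzma and 103% Nkg7, which is within or above the range of the WT saline uteri for these genes. The other 2 WT E2 uteri were lower in each of them. Without WT E2 1 the median of the 10 genes was -0.60, and 5 of them were called lower after E2: Gzma (-0.93, limma adjusted p = 0.0162), Gzmb (-0.99, 0.0153), Gzmc (-1.85, 0.0221), Prf1 (-0.79, 0.000593) and Nkg7 (-0.47, 0.0202). Klrd1 (-0.38, limma adjusted p = 0.136) and Ncr1 (-0.73, 0.143) were not called without that array. WT E2 1 was the only WT E2 array on slide 2, which held no WT saline array, and the part of the slide in this was not tested. Within slide 1, with 1 mouse against 1, the differences were -1.23 for Gzmb, -2.77 for Gzmc and -0.77 for Prf1. Within slide 3, with 1 against 2, they were -0.80, -1.18 and -0.75 in that order.

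The responses of the genotypes were set against each other with an interaction term. Prf1, Nkg7 and Klrd1 were called, each with a response that was higher in EAAE than in WT, which makes 3 of 10 genes higher and none lower. Over all genes 22.2% were called higher and 15.0% lower. The median difference of the 10 genes was 0.88, beside 0.15 over all genes.

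Klrd1 differed by 0.91 (SE 0.23, limma adjusted p = 0.0118), from responses of 0.55 in EAAE and -0.36 in WT. Nkg7 differed by 0.81 (SE 0.22, limma adjusted p = 0.0142), from responses of 0.51 in EAAE and -0.30 in WT. Its second probe gave 0.90 (SE 0.21, limma adjusted p = 0.0075 over all probes). These calls were kept on leaving out any of the 12 arrays. Prf1 differed by 1.01 (SE 0.34, limma adjusted p = 0.0381), from responses of 0.58 in EAAE and -0.44 in WT, and its call was lost on leaving out any 1 of 10 of the 12 arrays, with adjusted p-values of 0.0549 to 0.0904. It was kept without WT E2 1 or EAAE E2 2, and lost without the filter on dim probes (adjusted p = 0.0643). Gzma was called with position as a linear term (1.22, adjusted p = 0.0129). Ncr1 (0.98, limma adjusted p = 0.126) was called without EAAE E2 2, and Cd8a (1.49, 0.117) without EAAE saline 1. Gzmb (0.85, limma adjusted p = 0.167), Gzmc (1.69, 0.141) and Gzma (0.78, 0.263) were not called, and without WT E2 1 all 3 were, at 1.21, 2.28 and 1.25.

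**Figure D3:**
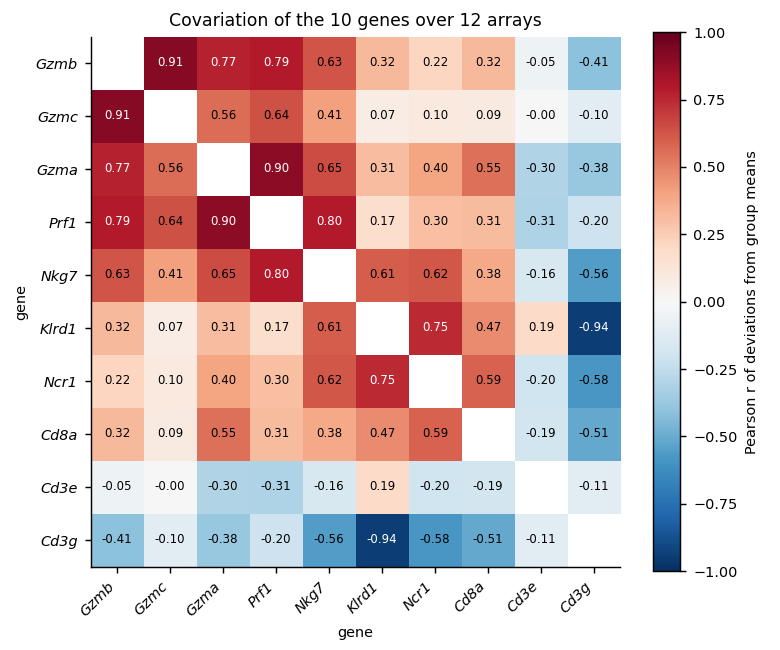
Pearson correlation of each pair of genes over the 12 arrays, after each group's mean was taken off the log2 levels; red is positive and blue negative. The granzymes, Prf1 and Nkg7 form a block with values of 0.41 to 0.91, and Cd3g is at -0.94 with Klrd1.

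The mouse-to-mouse spread inside the groups was shared by the granule genes. Over the 12 arrays, after each group's mean was taken off, the 10 pairs among Gzma, Gzmb, Gzmc, Prf1 and Nkg7 had Pearson correlations of 0.41 to 0.91 with a median of 0.71. Gzmb and Gzmc, both on chromosome 14, had 0.91, and Gzma and Prf1 had 0.90. The 10 pairs of these genes with Cd3e and Cd3g had none above 0 and a lowest value of -0.56. Ncr1 and Klrd1 had 0.75, and Klrd1 and Cd3g had -0.94. These are descriptions of 12 arrays in groups of 3, with shared scaling and shared slides. WT E2 1 and EAAE E2 1 were each the highest of their group in Gzma, Gzmb, Gzmc, Prf1 and Nkg7. How far these arrays carry the correlations was not tested.

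The genes most like each member by the same measure, among 19291 others, were taken as the 3 with the highest correlation. With so many genes and few arrays the highest values can be large by chance, and no chance level was computed. The highest values listed, 0.99, were those of Best2, Hcn4 and Cyp4a31 with Cd3e, above those of the genes described by function below. Whether any listed gene shares cells or control with its member was not tested. Itgae, the integrin chain CD103 of tissue-resident lymphocytes, was at 0.97 with Gzmc and 0.93 with Gzmb. Fasl, the death ligand of killer cells, was the nearest gene to Ncr1 at 0.92. Cd274, the checkpoint ligand PD-L1, had 0.94 with Gzma, behind Col12a1 at 0.98, and Batf2 had 0.95 with Prf1. Armc3 (0.94 with Gzmb), Ldhal6b and Dppa3 (0.91 each with Gzmc), Best2, Hcn4 and Cyp4a31 (0.99 each with Cd3e), Mpp3 (0.94) and Nelfe (0.93) with Cd3g, Synpr (0.94 with Cd8a), Nbeal1 (0.91) and Cenpj (0.89) with Ncr1, and Fam180a (0.94), Astn1 (0.92) and Npy1r (0.91) with Klrd1 made up most of the rest, which also held transcripts known by an accession or clone name.

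The list counts that follow are read beside the shares of all genes already given for each comparison. Other granzymes and granule genes were read from a list of 18, of which 17 had a probe and 11 were tested. Under saline 2 were called higher and 6 lower in EAAE (all genes 14.5% and 15.1%), with a median of -0.25. Gzmd, of the same cluster as Gzmb and Gzmc, was lower too: its bright probe had 24.1, 23.2 and 19.6% in the EAAE saline uteri, against 33.9, 32.6 and 34.5% in the WT saline uteri (difference -0.60, SE 0.15, limma adjusted p = 0.0117). It also fell with E2 in WT, by 0.57 (SE 0.15, limma adjusted p = 0.00861). The dim Gzmd probe was above background on no array, so the level rests on 1 probe. Gzmf was above background on 2 of the 3 WT saline arrays and on no other, Gzmg on 1 EAAE saline array, and Gzme, Gzmn and Gzmk on none. Gzmm, a granzyme of chromosome 10, ran the other way, with 42.6, 46.3 and 40.1% in the EAAE saline uteri, against 27.6, 28.0 and 31.1% in the WT saline uteri (difference 0.57, SE 0.10, limma adjusted p = 0.00178). Unc13d, which primes granules for fusion, was higher too (0.89, SE 0.11, limma adjusted p = 0.000201), and both remained higher in EAAE after E2, at 0.60 and 1.13. After E2, 4 of the 11 were called higher and 2 lower, where all genes had 33.5% and 24.5%. Srgn, the proteoglycan that packs granule contents in many blood cells, rose with E2 by 0.43 in EAAE and by 0.42 in WT (limma adjusted p = 0.0401 and 0.00202), and Stx11 fell by 0.74 in WT (limma adjusted p = 0.0017). In all, 1 was called higher and 0 lower with E2 in EAAE (all genes 0.684% and 0.751%), and 1 higher and 3 lower in WT (all genes 19.6% and 29.8%). The responses differed for 4 genes upward and 1 downward in EAAE relative to WT (all genes 22.2% and 15.0%), with Stxbp2 (0.73), Ctsw (0.81) and Gzmd (0.60) among them.

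Further NK receptors and factors were lower under saline more often than higher. Of 34 tested, 2 were higher and 16 lower in EAAE (all genes 14.5% and 15.1%), with a median of -0.55. Il2rb, the receptor chain shared by interleukins 2 and 15, had 78.3, 75.7 and 80.5% in the EAAE saline uteri, against 104, 135 and 130% in the WT saline uteri (difference -0.65, SE 0.14, limma adjusted p = 0.00673). The groups did not overlap. The NK receptor Klrb1c (-0.60, adjusted p = 0.0265), the T-box factor Tbx21 (-0.42, 0.0362) and the death ligand Tnfsf10 (-1.01, 0.000129) were lower by limma, whereas Eomes (-0.32, 0.234) and Klrk1 (-0.25, 0.4) were not called. Id2, an inhibitor of helix-loop-helix factors that many cell types express, was higher (1.29, limma adjusted p = 0.000199). The summed signal of the list ran the other way from its median, at 3003 to 3685% in EAAE saline uteri and 2602 to 2849% in WT saline uteri. Id2 is a bright part of that sum, with mean log2 levels of 4.46 in EAAE saline and 3.18 in WT saline uteri. The mean log2 level over the list was lower in EAAE, at -2.62 to -2.33 against -1.97 to -1.90 in WT saline uteri. The sum therefore does not speak for most of the list. After E2, 6 were higher and 4 lower in EAAE (all genes 33.5% and 24.5%), with a median of 0.02, and none of Il2rb, Klrb1c, Tbx21, Eomes and Klrk1 was called. With E2, 1 was called higher and 0 lower in EAAE (Prdm1, 1.12, limma adjusted p = 0.0141), where all genes had 0.684% and 0.751%. In WT 1 was higher and 8 lower (all genes 19.6% and 29.8%), led by Itga1 (-1.52, limma adjusted p = 7.55e-06) and Prdm1 (-1.75, 1.34e-05). Which cells gave the Itga1 and Prdm1 signals was not tested. The responses differed for 10 genes upward and 1 downward in EAAE relative to WT (all genes 22.2% and 15.0%), with Prdm1 at 2.87 and Itga1 at 1.15 the smallest in p.

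T cell genes other than Cd3e, Cd3g and Cd8a were also counted. Of 28 tested, 2 were higher and 8 lower in EAAE under saline (all genes 14.5% and 15.1%), with a median of -0.35. After E2, 4 were higher and 3 lower, where all genes had 33.5% and 24.5%. Cd3d (-0.34, limma adjusted p = 0.289), Cd4 (0.26, 0.422) and Cd8b1 (0.21, 0.186, on its brightest probe) were not called under saline. On a second, dimmer Cd8b1 probe the EAAE saline uteri had 9.78, 3.91 and 6.03%, against 12.4, 14.4 and 11.5% in the WT saline uteri. Those values did not overlap and ran the other way, so the Cd8b1 probes disagreed. The 2 genes of the list with the smallest p were the related factors Lef1 (1.05, limma adjusted p = 0.000247) and Tcf7 (-0.81, 0.000559). They went opposite ways and are also expressed outside T cells. Skap1 was higher after E2 (1.45, limma adjusted p = 2.89e-05) and Tcf7 lower (-1.51, 1.87e-06). With E2, 0 were higher and 1 lower in EAAE (Tcf7, -0.58, limma adjusted p = 0.0418), where all genes had 0.684% and 0.751%. In WT 0 were higher and 4 lower (all genes 19.6% and 29.8%), led by Bcl11b (-0.94, limma adjusted p = 0.00103) and Thy1 (-0.46, 0.0138). Thy1 had a mean log2 level of 4.38 in WT saline uteri, and which cells gave that signal was not tested. The responses differed for 3 genes upward and 1 downward (all genes 22.2% and 15.0%), with Thy1 at 0.70 and Tcf7 at -0.69.

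Cytokines, chemokines and their receptors that act on these cells were lower under saline in 11 of 21 genes and higher in 3, with a median of -0.80. All genes had 15.1% lower and 14.5% higher. Cxcl14 (-2.51, limma adjusted p = 5.79e-06) and Cxcl16 (-1.67, 2.88e-05), chemokines that draw lymphocytes, had the smallest p. Il15, the survival factor of NK cells, had 25.6, 21.9 and 22.2% in the EAAE saline uteri, against 34.5, 50.6 and 29.6% in the WT saline uteri. Those ranges did not overlap, but the difference of -0.68 (SE 0.46, limma adjusted p = 0.286) was not called. In WT uteri Il15 fell with E2 by 1.32 (SE 0.46, limma adjusted p = 0.0347), with 14.3, 6.79 and 34.6% in the WT E2 uteri, so that the last of them lay among the WT saline uteri. These values are of the brighter Il15 probe. The other tested probe had 4.07, 5.63 and 7.37% in the WT E2 uteri and 4.44, 6.92 and 2.75% in the EAAE saline uteri. Both groups lay below the WT saline uteri on that probe, at 9.11, 7.42 and 8.76%. Il15ra, which presents interleukin 15, fell in WT by 1.51 (limma adjusted p = 1.14e-05), and Cxcr4 by 2.42 (8.66e-07), among 7 of 21 genes lower and 0 higher, a share near the 29.8% of all genes called lower. None of the 21 was called in EAAE in response to E2, where 15 had a difference above 0. The responses differed for 7 of 21 genes, all upward (all genes 22.2%), with Cxcr4 at 2.35 and Il15ra at 1.33. After E2, 4 were higher and 5 lower in EAAE (all genes 33.5% and 24.5%), with Cxcr4 (3.43, limma adjusted p = 4.93e-08) and Il7 (2.31, 4.96e-07) the smallest in p.

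Ligands that NK and CD8 receptors read on other cells were lower under saline in 7 of 18 genes and higher in 1, with a median of -0.72. All genes had 15.1% lower and 14.5% higher. H2-T23, the Qa-1 molecule that Klrd1 with NKG2A reads, was lower (-1.16, limma adjusted p = 0.000295), and Cdh1, the E-cadherin read by Klrg1 and Itgae, was higher (0.83, 7.31e-05). After E2, 2 were higher and 7 lower (all genes 33.5% and 24.5%), with Cdh1 at 0.98 (limma adjusted p = 4.34e-06) and Pvr at -1.46 (6.31e-05). Pvr and Nectin2, ligands of the activating receptor CD226, rose with E2 in WT by 1.82 and 0.72 (limma adjusted p = 2.29e-05 and 0.000325). They were the 2 genes called higher there, with 3 lower, where all genes had 19.6% and 29.8%. In EAAE 0 were called (all genes 0.684% and 0.751%). The responses of Pvr and Nectin2 differed by -1.72 and -0.78, among 3 genes upward and 2 downward (all genes 22.2% and 15.0%).

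**Figure D4:**
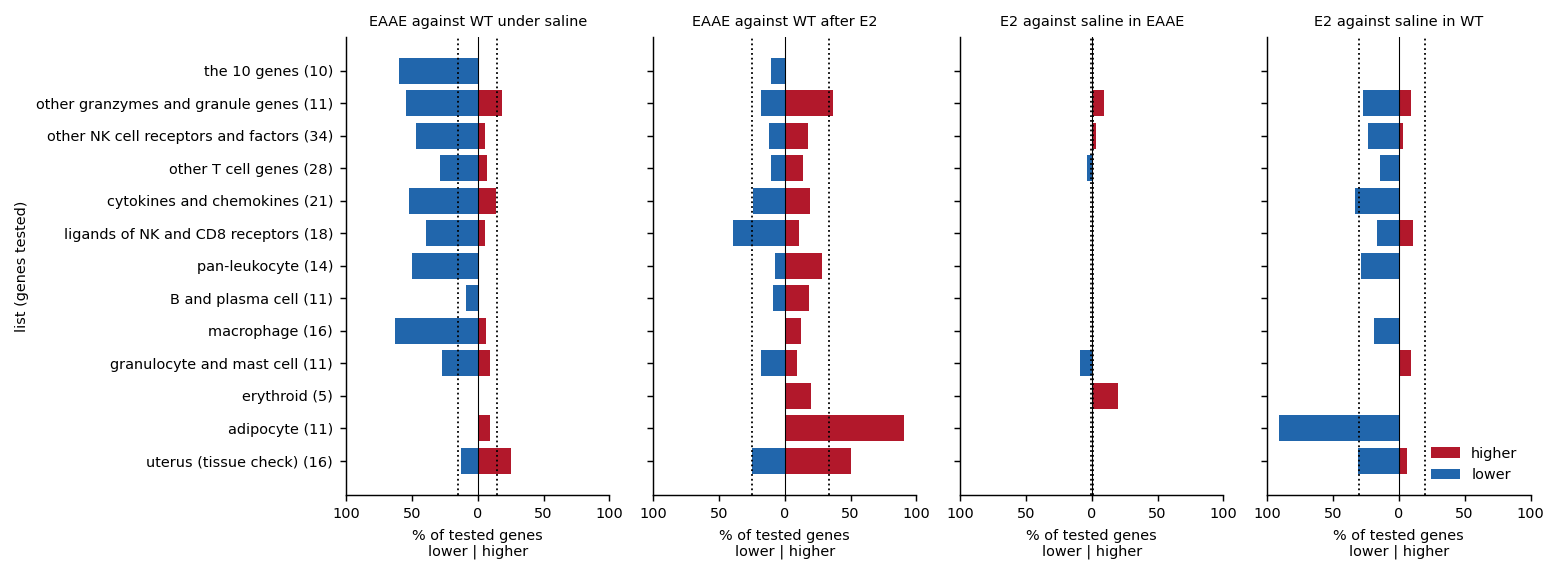
Share of tested genes called higher (red, right) or lower (blue, left) for the 10 genes and 12 lists in 4 comparisons, with the number tested in parentheses; dotted lines are the shares over all genes. Under saline the 10 genes and the lists of other granule, NK, T cell, cytokine, ligand, pan-leukocyte, macrophage and granulocyte genes reach past the dotted line on the lower side, and the B cell, erythroid, adipocyte and uterine lists do not.

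Markers of other cells moved beside the 10 genes. Under saline, 7 of 14 pan-leukocyte genes and 10 of 16 macrophage genes were called lower in EAAE, with 0 and 1 higher. All genes had 15.1% lower and 14.5% higher. The macrophage gene called higher was Cd163 (2.08, limma adjusted p = 0.00163), which had the smallest p of its list. Aif1, called lower, came next (-1.30, 0.00194). Ptprc, the leukocyte common antigen CD45, had 123, 84.9 and 109% in the EAAE saline uteri, against 199, 172 and 173% in the WT saline uteri (difference -0.80, SE 0.25, limma adjusted p = 0.039). The summed macrophage signal was 4648 to 6631% in EAAE saline uteri and 13934 to 21416% in WT saline uteri, and the summed pan-leukocyte signal was 1588 to 1711% and 2561 to 2868% in that order. Of 11 B and plasma cell genes 0 were higher and 1 lower, of 11 granulocyte and mast cell genes 1 higher and 3 lower, and of 5 erythroid genes none either way. EAAE E2 1, which had the highest Gzmb, Gzmc and Klrd1 of its group, also had the highest Ptprc, 236% against 107 and 126% in the other 2 mice of that group, and EAAE E2 uteri spanned 4762 to 17559% in the macrophage sum. Adipocyte genes were called lower after E2 in WT in 10 of 11 genes (all genes 29.8%) and higher in EAAE than WT after E2 in 10 of 11 (all genes 33.5%). Their sum was 6794 to 29784% in EAAE E2 uteri, 4817 to 22564% in EAAE saline uteri, 1007 to 3280% in WT E2 uteri and 3470 to 20583% in WT saline uteri. The uterine list had mean log2 levels of 2.98 to 3.37 on all 12 arrays. The part of these cell types in the results on the 10 genes was not tested.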

How the data were processed

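Each of 12 arrays held labelled RNA of 1 uterus. The deposited intensity of each spot is the processed signal that Agilent Feature Extraction 9.5 gave, per the file headers and the submitters' processing notes. It is background-subtracted by that software, and the probe positions refer to build mm7. Control spots and outlier-flagged spots were left out, the log2 of the processed signal was reduced by each array's 75th percentile, and spots of 1 probe were averaged. A probe was kept where some group had it well above background in each of its 3 mice, with the brightest probe for each gene. limma 3.58.1 in R 4.3.3 fitted the 4 groups together, with Benjamini-Hochberg adjustment over 19304 genes at 0.05, and was tested on simulated data. The 10 genes and the lists were chosen with earlier results of these data known. Of each list the 2 genes with the smallest p in a comparison were named, beside genes set by name. Same-numbered mice of different groups had residual correlations of -0.28 to 0.28 and were not treated as pairs. Alternatives covered scaling, background, filter, probe choice, slide, position and each array left out.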

Additional observations from a re-analysis of the deposited data

Results flagged for a closer look

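The response to E2 differed between EAAE and WT uteri, by limma's interaction term with an adjusted p under 0.05, for 3 of the 10 genes. All 3 were higher in EAAE, where 22.2% of all genes were called higher and 15.0% lower. The Prf1 call was lost on leaving out any 1 of 10 of the 12 arrays. The difference (EAAE minus WT, log2) was 1.01 for Prf1, 0.91 for Klrd1, and 0.81 and 0.90 for the probes of Nkg7. No response of these genes within either genotype passed the test.

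Among the list genes named by p or by name, the response was higher in EAAE than in WT for Prdm1 (2.87), Cxcr4 (2.35), Il15ra (1.33), Itga1 (1.15), Ctsw (0.81), Stxbp2 (0.73), Thy1 (0.70) and Gzmd (0.60). It was lower in EAAE than in WT for Pvr (-1.72), Nectin2 (-0.78) and Tcf7 (-0.69). Which cells of the uterus gave these signals was not tested.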

How the results depend on the processing

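Of 50 results (10 genes in 5 comparisons), 14 changed sign under some of the 23 alternative settings, in 38 of 1145 values, and none of these had passed the test. With slide position as a linear term, 2 of the 10 genes were called under saline, and Gzma was called in place of Gzmb after E2 and added to the difference between the responses (1.22, adjusted p = 0.0129). With a replicate block, 3 were called for E2 in WT and 2 for EAAE against WT after E2, and with normexp background correction 1 was called for E2 in WT. For the difference between the responses, both settings added Ncr1 (0.98 and 0.72, adjusted p = 0.0241 and 0.0468), and without the filter Prf1 was lost (adjusted p = 0.0643). The replicate block dropped Cd8a under saline (adjusted p = 0.051), and so did leaving out the filter (adjusted p = 0.0698). The cause of these shifts was not tested. Leaving out 1 array at a time gave 0 to 5 calls for E2 in WT, 0 to 1 for E2 in EAAE, 2 to 6 for the difference between the responses, 5 to 6 under saline and 1 to 2 after E2.

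Sign changes for E2 in WT were Cd3e at 0.046 with the slide as a block, and Cd8a at 0.033 with median scaling, 0.13 with quantile scaling and 0.23 with position. For E2 in EAAE, position gave -0.12 for Cd3e and -0.25 for Cd3g. Under saline it gave 0.70 for Gzma. After E2 it gave 0.59 for Prf1, 0.22 for Nkg7, -0.32 for Cd3g and 0.97 for Cd8a. Cd8a after E2 was 0.13 with normexp and 0.14 as the mean of its probes, and Klrd1 was -0.065 with median and -0.0020 with quantile scaling. Leaving out 1 array gave -0.43 to 0.0044 for Cd3e and -0.40 to 0.20 for Cd8a with E2 in WT. It gave -0.10 to 0.41 for Gzmb, -0.18 to 0.83 for Gzmc and -0.18 to 0.23 for Cd3g with E2 in EAAE, and -0.44 to 0.019 for Gzma and -0.23 to 0.11 for Cd3g under saline. After E2 the ranges were -0.28 to 0.29 for Prf1, -0.14 to 0.11 for Nkg7, -0.38 to 0.33 for Cd3e, -0.015 to 0.31 for Cd3g, -0.27 to 0.37 for Cd8a and -0.11 to 0.16 for Klrd1.

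Over all genes, 277 were called for E2 in EAAE, against 7 with only those arrays fitted, 24 with position, 121 without the filter, 139 with the slide, 137 with the replicate block and 63 (without EAAE saline 2) to 366 (without EAAE E2 3) with 1 array left out. Under saline 5715 were called, against 3627 with the slide and 2966 with position, and after E2 11193, against 7321 with position. With median scaling the calls for E2 in EAAE were 128 higher and 75 lower, in place of 132 and 145. Cd8a lay near background, at 9 of 12 arrays well above it, which limits its precision. The replicate numbers did not pair the mice.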
